A study of Rattus norvegicus with 93 samples.

Results

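Genes of pericytes, smooth muscle and myofibroblasts were followed through the healing of a hole in the rat skull: Rgs5, Myh11, Acta2, Tagln, Cnn1, Pdgfrb, Cspg4, Notch3 and Abcc9. They were taken by symbol from the annotation of the array, and 8 of these 9 were measured among 15975 genes. Acta2, which encodes smooth muscle alpha-actin, the defining protein of a myofibroblast, was matched to no probe in that annotation and has no value here. The arrays came from 93 defects in male rats aged 12 weeks. A trephine on a drill press cut a disc 4 or 8 mm across out of the calvaria, the bone that roofs the skull, the dura mater was kept, and nothing was placed in the hole. The design text names the 8 mm defect critical-sized and the 4 mm defect not. Healing tissue was cut out with the same trephine at days 1, 3, 5, 7, 10, 14 or 21, with 3, 8, 11, 5, 4, 5 and 6 arrays of 4 mm defects and 5, 11, 12, 5, 6, 6 and 6 arrays of 8 mm defects at these days. Day 1 is the reference in time, since uninjured bone was not analysed here.

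Pericytes wrap the endothelium of capillaries, and smooth muscle cells wrap larger vessels; together they are the mural cells. Sprouting endothelium releases the growth factor PDGF-B, and mural cells follow it through the receptor PDGFRB, which is how new vessels in granulation tissue gain their coat. Myofibroblasts are wound fibroblasts that take up contractile proteins under mechanical load and TGF-beta, and they draw a wound together. Contractile genes are shared by smooth muscle and myofibroblasts, and Pdgfrb and Cspg4 are also read in fibroblasts and other progenitors, so no member marks a cell type alone. In tissue arrays such as these, fewer cells of a type and less RNA per cell cannot be told apart.

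All values below are log2 of the deposited ratio, called the log2 level. For most probes a log2 level of 0 is the median of the 93 arrays, and the floor of the table, a ratio of 0.01, is a log2 level of -6.64. Levels of different genes are therefore not on a common scale, and each gene is compared with itself. Over the whole series the median level of probes with no value at the floor was lower at day 1, at -0.51 in 4 mm and -0.43 in 8 mm defects, and highest in the 4 mm defects of day 7, at 0.44. The share of values at the floor averaged 10.2% to 10.4% in the groups of days 1, 3 and 5 and 11.9% to 21.4% in those of later days. Skeletal muscle genes, markers of another tissue, had a mean level of 4.30 ± 2.93 (SD, n = 3) and 3.13 ± 2.36 (SD, n = 5) at day 1 and of -2.06 and -0.24 at day 7, in 4 and 8 mm defects. Osteoblast genes, the markers of the labelled tissue, ran the other way, from -3.32 and -2.50 at day 1 to 0.55 and 1.72 at day 21.

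Differences between days were sought first within each size, with limma's F test over the 7 days. In 4 mm defects 6 of the 8 members changed over the days, namely Rgs5, Myh11, Tagln, Cnn1, Pdgfrb and Cspg4, where 33.5% of all genes did. In 8 mm defects 7 of 8 changed, these 6 and Notch3, against 40.2% of all genes. Abcc9 passed in neither size on its tested probe, with adjusted p-values of 0.553 and 0.832; its other probe passed in 8 mm defects (0.0426) and not in 4 mm defects (0.223). By group means, Rgs5 was highest at day 7 in 4 mm and day 5 in 8 mm defects, and Pdgfrb at day 7 and day 14. Tagln, Cnn1 and Cspg4 were highest at day 5 in both sizes, and Myh11 at day 21 in 4 mm and day 14 in 8 mm defects. Whether these courses differ between members was not tested. The plot of log2 levels by day and defect size holds every array.

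**Figure D1:**
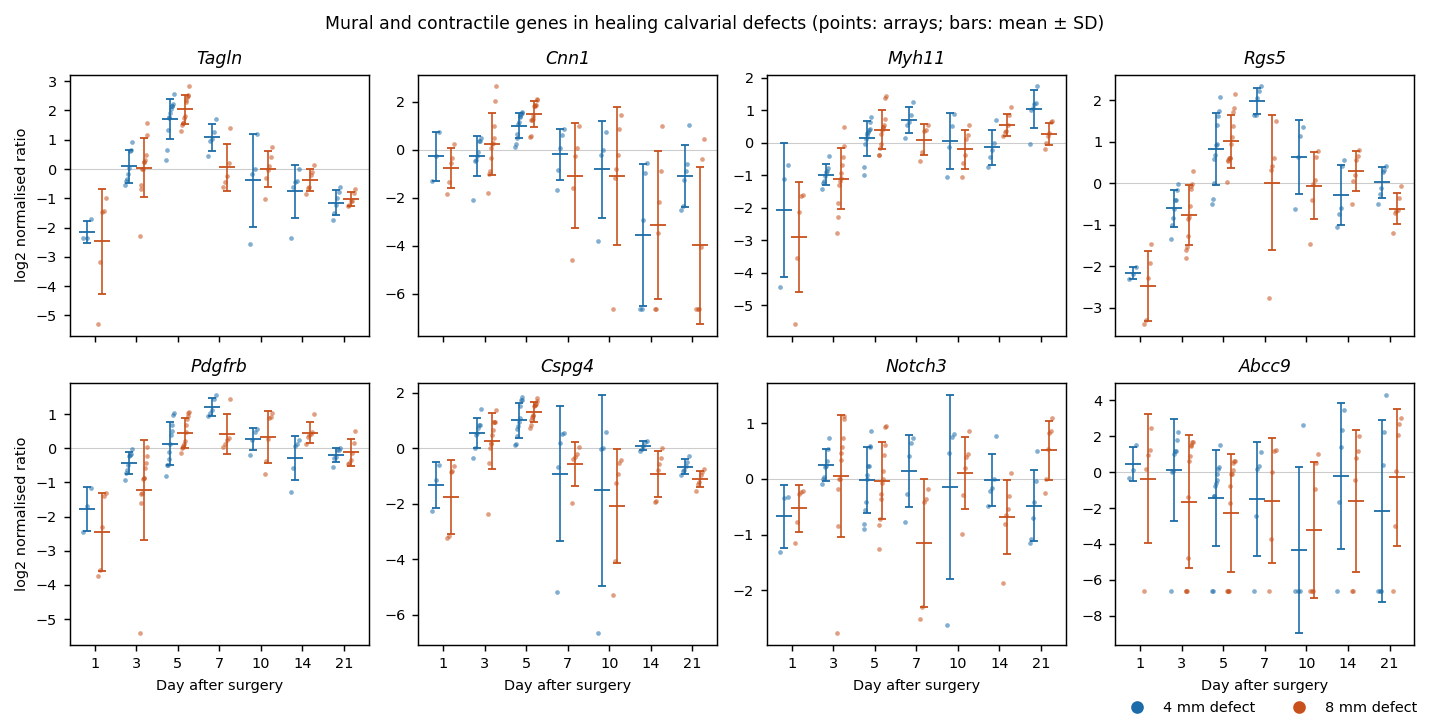
Log2 level (vertical axis) of the 8 measured members against day after surgery, with the days evenly spaced; each point is 1 array, each bar the mean ± SD of a group, blue for 4 mm and orange for 8 mm defects. Tagln is highest at day 5 in both sizes, with means of 1.71 and 2.04, Rgs5 in 4 mm defects peaks at day 7 at 1.99, and the row of points at -6.64 under Abcc9 and Cnn1 is the floor of the table.

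Tagln, also called SM22, encodes transgelin, an actin-binding protein of smooth muscle that is taken up early in myofibroblasts. At day 1 its log2 level was -2.34, -1.72 and -2.37 in the 3 arrays of 4 mm defects, and -5.30, -1.48, -1.0, -1.42 and -3.16 in the 5 of 8 mm defects. By day 5 the lowest, median and highest arrays stood at 0.32, 1.91 and 2.55 in 4 mm and at 1.31, 2.05 and 2.82 in 8 mm defects. No array of day 5 was as low as any of day 1. By day 21 the level had come down to a median of -1.12 in 4 mm and -1.08 in 8 mm defects. Against day 1, both sizes weighted equally, Tagln rose by 2.38 ± 0.35 (SE) at day 3, 4.18 ± 0.34 at day 5 and 2.88 ± 0.39 at day 7 on the log2 scale, and was still up by 2.11 ± 0.40, 1.74 ± 0.39 and 1.22 ± 0.38 at days 10, 14 and 21. The rise of day 5 is 18.2-fold (limma adjusted p = 2.2e-17) and that of day 21 is 2.33-fold (adjusted p = 0.0108). The call at day 21 rests on the shared error of the 14 groups and on a low day 1 array: the adjusted p was 0.0711 with the compared groups alone and 0.0579 without day 1, 8 mm replicate 11, where the rise was 0.87.

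Cnn1 encodes calponin, which binds actin and slows the myosin motor, and is a later marker of smooth muscle than transgelin. Its day 1 levels were 0.74, -0.27 and -1.29 in 4 mm and -0.32, -1.34, 0.23, -0.56 and -1.83 in 8 mm defects. At day 5 the lowest, median and highest were 0.13, 1.15 and 1.59 in 4 mm and 0.56, 1.63 and 2.12 in 8 mm defects. All 23 arrays of day 5 lay above the mean of day 1, but the groups overlapped, and the difference of 1.77 ± 0.75 (SE) had an adjusted p of 0.0895. That outcome depends on the scaling: it was 2.08 (adjusted p = 0.0431) under quantile normalisation and 1.37 (0.262) with centred arrays. Later the probe fell out on many arrays: it was at the floor on 2 of 5 and 2 of 6 arrays at day 14 and on 3 of 6 arrays of 8 mm defects at day 21. The difference from day 1 was -2.82 ± 0.85 at day 14 (adjusted p = 0.0106), with 10 of 11 arrays below the mean of day 1, and -2.02 ± 0.83 at day 21 (adjusted p = 0.0626). The size of that fall depends on where the floor lies. Of all values, 19.8% and 16.3% were at the floor at day 14 in 4 and 8 mm defects. At day 21 the shares were 17.3% and 21.4%, and at day 1 they were 10.2% and 10.3%. With values under 0.25 raised to 0.25 the day 14 difference was -0.89 with an adjusted p of 0.162, and with the compared groups alone the adjusted p was 0.102.

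Myh11 encodes the smooth muscle myosin heavy chain, the member most tied to mature smooth muscle. It had a pair of probes, and the tests use the more variable of them. On that probe the day 1 levels were -4.45, -1.11 and -0.68 in 4 mm and -3.54, -2.11, -1.61, -1.65 and -5.58 in 8 mm defects, so the arrays of that day were themselves far apart. At day 7 the 4 mm levels were 0.66, 0.87, 0.16, 1.26 and 0.56 and the 8 mm levels were 0.54, 0.41, -0.54, -0.29 and 0.35, all above every day 1 array. At day 21 the lowest, median and highest were -0.03, 1.13 and 1.74 in 4 mm and -0.18, 0.25 and 0.66 in 8 mm defects. Myh11 rose by 2.76 ± 0.33 (SE) at day 5 and 2.88 ± 0.37 at day 7, and was up by 2.42 ± 0.38, 2.70 ± 0.37 and 3.14 ± 0.36 at days 10, 14 and 21, with adjusted p-values of 5.8e-07 or less. At day 3 it rose by 1.45 ± 0.34 (adjusted p = 0.00171), but by 0.86 without day 1, 4 mm replicate 13 (adjusted p = 0.189).

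The other Myh11 probe gave another course, though it too changed over the days (adjusted p = 0.0451 in 4 mm and 0.0172 in 8 mm defects). Its log2 level averaged -0.26 in both sizes at day 1, 0.19 and -0.73 at day 5, and -1.0 and 0.91 at day 21, in 4 and 8 mm defects. It did not differ from day 1 at any later day; the difference was -0.01 ± 0.32 (SE, adjusted p = 0.988) at day 5 and 0.22 ± 0.35 (adjusted p = 0.696) at day 21. Over the 93 arrays the levels of the pair had a Pearson correlation of 0.08, as a description. All values of Myh11 in this text are therefore those of its more variable probe unless the other is named.

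Rgs5 encodes a regulator of G-protein signalling that is among the strongest transcripts of pericytes. Its day 1 levels were -2.0, -2.18 and -2.29 in 4 mm and -3.39, -2.29, -1.92, -1.45 and -3.29 in 8 mm defects. At day 5 the lowest, median and highest arrays were -0.49, 0.93 and 2.09 in 4 mm and 0.04, 0.79 and 2.15 in 8 mm defects, and no array overlapped day 1. At day 21 the medians were 0.09 and -0.66, and again no array was as low as day 1. Rgs5 rose by 1.64 ± 0.32 (SE) at day 3, 3.24 ± 0.31 at day 5 and 3.32 ± 0.36 at day 7, and was up by 2.6 ± 0.36, 2.32 ± 0.35 and 2.02 ± 0.35 at days 10, 14 and 21. The rise at day 7 is 9.99-fold (limma adjusted p = 6.2e-12), with 9 of 10 arrays above the mean of day 1.

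Pdgfrb encodes the receptor for PDGF-B. Its day 1 levels were -2.47, -1.68 and -1.17 in 4 mm and -3.73, -2.31, -1.41, -1.30 and -3.55 in 8 mm defects. At day 7 they were 1.43, 1.03, 1.11, 1.56 and 0.95 in 4 mm and 0.13, 0.24, 0.02, 0.29 and 1.45 in 8 mm defects, so every array of day 7 lay above day 1. Pdgfrb rose by 1.29 ± 0.32 (SE) at day 3, 2.41 ± 0.31 at day 5 and 2.94 ± 0.36 at day 7, and was up by 2.42 ± 0.36, 2.20 ± 0.35 and 1.96 ± 0.35 at days 10, 14 and 21. The day 7 rise is 7.66-fold (adjusted p = 4.0e-10) and that of day 21 is 3.88-fold (adjusted p = 6.7e-06). The call at day 3, with an adjusted p of 0.00429, was lost with the compared groups alone (0.138).

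Cspg4 encodes NG2, a surface proteoglycan of pericytes and of several progenitors. Its day 1 levels were -2.25, -1.15 and -0.62 in 4 mm and -3.23, -0.82, -0.66, -0.86 and -3.16 in 8 mm defects. At day 5 the lowest, median and highest were 0.10, 0.95 and 1.85 in 4 mm and 0.71, 1.35 and 1.80 in 8 mm defects, all above day 1. Cspg4 rose by 1.94 ± 0.52 (SE, adjusted p = 0.0084) at day 3 and 2.70 ± 0.50 (adjusted p = 1.8e-05) at day 5, a 6.48-fold change. At day 7 the difference was 0.80 ± 0.58 (adjusted p = 0.347) and at day 10 it was -0.26 ± 0.58 (adjusted p = 0.814). Single arrays pulled some later groups far down, as at day 10 in 4 mm defects, where the levels were -6.64, -0.01, -0.02 and 0.59. The group medians were lower than at day 5 too. In 4 and 8 mm defects they were -0.01 and -1.09 at day 10 and -0.70 and -1.11 at day 21. The call at day 3 was lost without day 1, 4 mm replicate 13, with a rise of 1.72 and an adjusted p of 0.0757.

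Notch3 encodes the Notch receptor of mural cells, needed in arteries for their smooth muscle coat. It differed from day 1 at no day: the differences ran from 0.10 ± 0.38 (SE) at day 7 to 0.75 ± 0.34 at day 3, with adjusted p-values of 0.211 to 0.893. Group means lay between -0.67 and 0.25 in 4 mm and between -1.15 and 0.51 in 8 mm defects. The lowest group was day 7 of 8 mm defects, at -0.41, -0.35, -2.52, -0.17 and -2.30, and the highest was day 21 of 8 mm defects, with lowest, median and highest of -0.25, 0.68 and 1.10. The change over days in 8 mm defects (adjusted p = 0.0288) was lost without day 7, 8 mm replicate 13 or 15 (0.103 and 0.0948) and with the compared groups alone (0.0709).

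Abcc9 encodes SUR2, the regulatory subunit of the ATP-sensitive potassium channel of mural cells. The tested probe was at the floor on 26 of 93 arrays, spread over 13 of the 14 groups, and within a group its levels ran from -6.64 to as high as 4.30. No difference from day 1 passed, with SEs of 1.49 to 1.72. The other Abcc9 probe, at the floor on 2 arrays, was less scattered. At day 1 its mean level was -1.37 in 4 mm and -2.36 in 8 mm defects, and at day 5 it was 0.61 and -0.06. On that probe Abcc9 rose by 2.14 ± 0.54 (SE, adjusted p = 0.00169) at day 5 and by 1.77 ± 0.62 (adjusted p = 0.0293) at day 7, and the pair of probes had a Pearson correlation of -0.16 over the arrays.

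**Figure D2:**
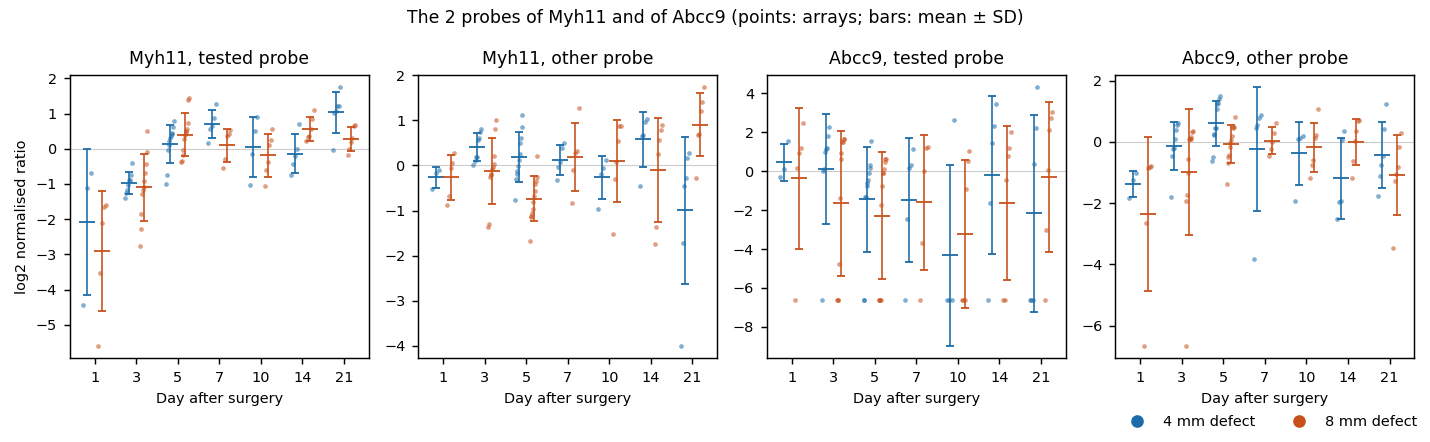
Log2 level (vertical axis) by day after surgery of the 2 probes of Myh11 and of Abcc9; points are arrays, bars the mean ± SD of a group, blue 4 mm and orange 8 mm. The tested Myh11 probe climbs from about -2.08 and -2.90 at day 1 while the other stays near -0.26 there, and 26 arrays of the tested Abcc9 probe stand at -6.64.

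Read by comparison, members rose as follows. Between day 1 and day 3, 5 of 8 changed, all upward (Tagln, Cspg4, Rgs5, Myh11 and Pdgfrb), where 6.44% of all genes changed and 5.97% rose. At day 5 the same 5 had risen, where 19% of all genes changed and 17.3% rose. Rgs5, Pdgfrb, Myh11 and Tagln, 4 of 8, were up at day 7 (21.4% of genes changed, 16.6% rose) and at day 10 (16.6% changed, 10.4% rose). At day 14 these 4 were up and Cnn1 was down, where 21% of genes changed, 12.6% rose and 8.41% fell. At day 21 the 4 were again above day 1 (26.2% changed, 13.4% rose). The medians of all genes shifted by 0.20, 0.34, 0.25, -0.06, -0.06 and -0.18 at these 6 days, far less than the members named. All 6 comparisons use the same 8 arrays of day 1, so their values are not independent of each other, and the level of the arrays and the skeletal muscle genes given above moved with them; their part was not tested. Under quantile normalisation and with each array centred on its median, each called member kept its direction and its call. The share of all called genes that rose, 92.7%, 91.1% and 77.4% at days 3, 5 and 7, was 80.1%, 69.4% and 60.1% with centred arrays and 83.6%, 67.4% and 63.5% under quantile normalisation. Of those not called, Notch3 at days 7 and 14 and Cspg4 at day 10 turned sign under 1 or both of these scalings. Cnn1 at day 5 and Cspg4 at day 14 passed under quantile normalisation, at 2.08 and 1.48 (limma adjusted p = 0.0431 and 0.0394). With centred arrays neither passed (0.262 and 0.157).

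**Figure D3:**
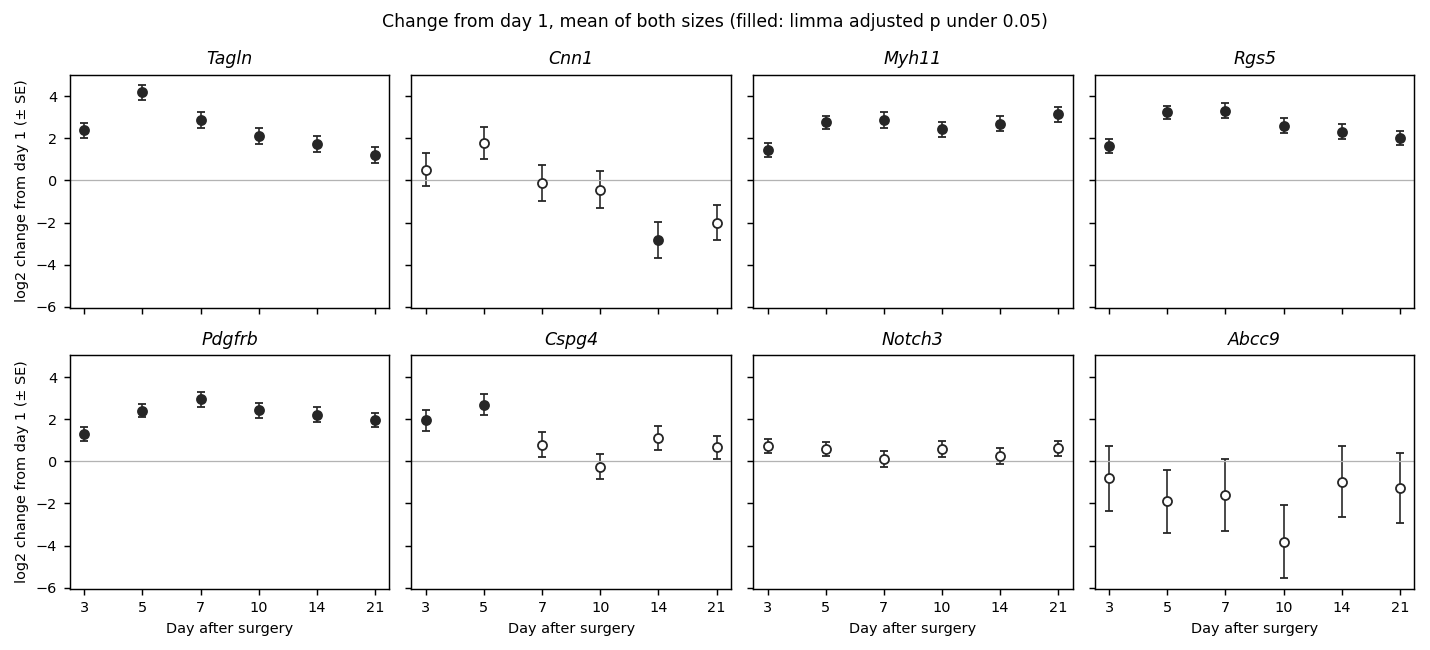
Log2 change from day 1 (vertical axis, mean of both defect sizes, bars ± SE) of each member at days 3 to 21; filled points have a limma adjusted p under 0.05. Tagln peaks at 4.18 at day 5, Rgs5 and Pdgfrb at 3.32 and 2.94 at day 7, and Myh11 is highest at day 21 at 3.14.

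From day 7 to day 21, part of the members came down again. Tagln fell by 1.66 ± 0.35 (SE, adjusted p = 0.000457), Rgs5 by 1.30 ± 0.32 (adjusted p = 0.00269) and Pdgfrb by 0.98 ± 0.32 (adjusted p = 0.0245), each with all 12 arrays of day 21 below the mean of day 7. These are 3 of the 8 members, where 16.4% of all genes changed and 12.9% fell, and the median of all genes fell by 0.43. Of the called genes 21.7% rose, and 43% did with centred arrays and 34.5% under quantile normalisation. Myh11 differed by 0.26 ± 0.33 (adjusted p = 0.645), and Cnn1 by -1.90 ± 0.77 (adjusted p = 0.0754). Notch3 differed by 0.52 ± 0.33 (adjusted p = 0.293), and by 0.84 (0.0338) with centred arrays and 0.71 (0.257) under quantile normalisation. Brain genes stood high on some of these arrays, with a mean level of 1.01 ± 3.08 (SD, n = 5) in 8 mm defects at day 7 and 2.16 ± 2.70 (SD, n = 6) in 4 mm defects at day 21, against -1.81 and -1.42 in the other groups of those days. Without the 8 arrays of high brain level, Rgs5 differed by -1.09 (adjusted p = 0.0516) and Pdgfrb by -1.06 (adjusted p = 0.0538), and Tagln alone of the 3 kept its call. The fall of Pdgfrb was also lost under quantile normalisation (-0.93, adjusted p = 0.0745) and without day 7, 8 mm replicate 15 (adjusted p = 0.0726).

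The second question of the design is whether a critical-sized hole differs from a smaller one. On the tested probes of these genes 1 comparison passed. The interaction of size and day passed for 0 of the 8 members in limma's test, where 0.538% of all genes passed. For Myh11 this depends on the probe: the other probe passed (limma adjusted p = 0.0322) and the tested probe did not (0.623). At an unadjusted p under 0.05 it held for 2 members and for 12.2% of all genes. Within single days 1 member differed: Rgs5 at day 7, lower in 8 mm defects. In 4 mm defects its levels were 2.23, 2.07, 1.65, 2.34 and 1.65, and in 8 mm defects 0.43, 0.32, -2.76, 0.61 and 1.51, so the groups did not overlap. The difference was -1.97 ± 0.47 (SE), a 3.91-fold lower mean, with an adjusted p of 0.0308 and 5 of 5 arrays below the mean of the 4 mm group. At that day 0.369% of all genes differed, 0.313% lower in 8 mm, and the median of all genes was lower by 0.40. Of the called genes 15.3% were higher in 8 mm defects, and 43.8% were with centred arrays.

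That call of Rgs5 was a narrow one. Replicate 13 of the 8 mm group supplied the lowest value, and without it the difference was -1.27 with an adjusted p of 0.393. It was also lost with the 10 arrays of day 7 alone (adjusted p = 0.186), with values under 0.25 raised to 0.25 (adjusted p = 0.0601) and without 4 mm replicate 10, 12 or 14 (adjusted p of 0.0725 to 0.0835). It held under quantile normalisation, at -2.02 (adjusted p = 0.0455), and with arrays centred on their median, at -1.55 (adjusted p = 0.0349). Beside it, the median level of the arrays was 0.44 ± 0.09 in 4 mm and -0.11 ± 0.26 in 8 mm defects, skeletal muscle genes stood at 2.48 on replicate 13 and 1.51 on replicate 12 of the 8 mm group, and brain genes at 4.19 and 4.56 on its replicates 10 and 12. On the 5 arrays of 4 mm defects the same lists lay between -2.71 and -1.40 and between -3.60 and 0.67. Leaving out the arrays of high brain level did not change the count of members called for size at this day. Beyond that refit and the centred arrays, the part of these lists and levels in the difference was not tested.

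**Figure D4:**
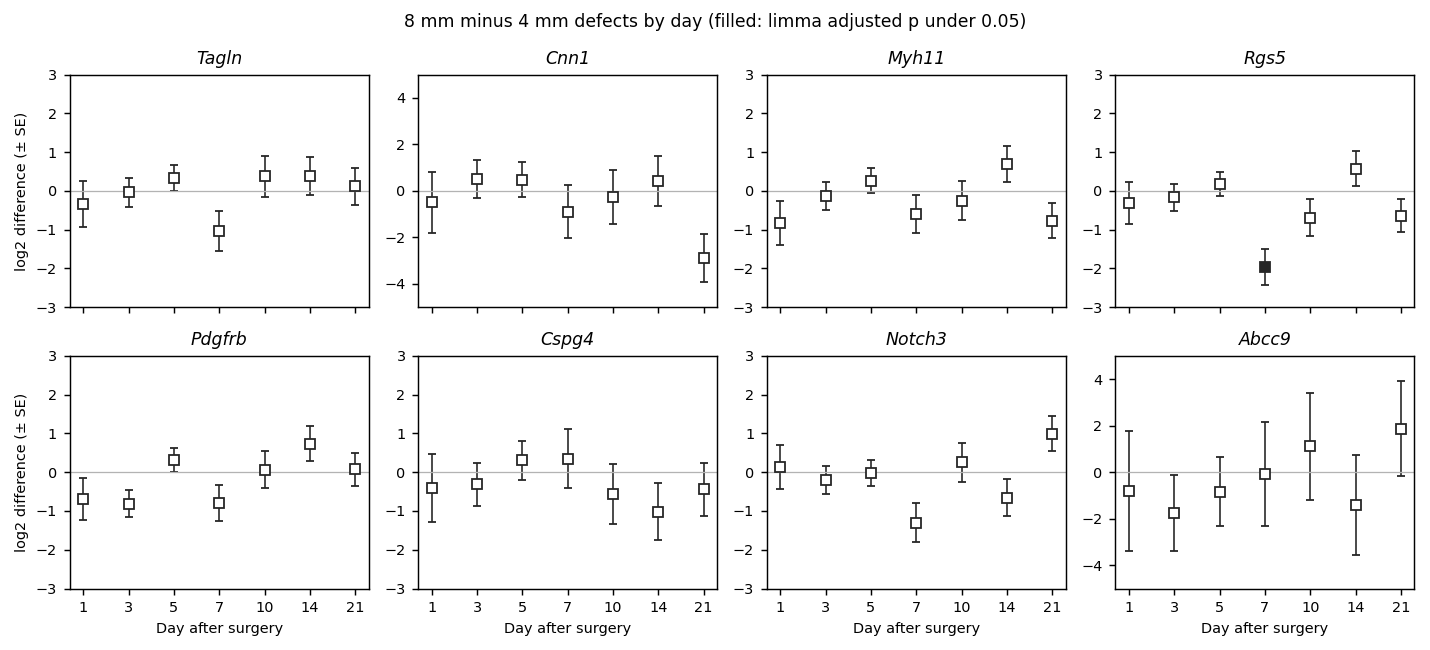
Log2 difference of 8 mm minus 4 mm defects (vertical axis, ± SE) by day after surgery for each member; filled squares have a limma adjusted p under 0.05, and Cnn1 and Abcc9 are drawn on a wider axis. Rgs5 at day 7 is the filled square, at -1.97; Tagln and Notch3 lie at -1.03 and -1.30 that day without passing.

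Other members had lower means in 8 mm defects at day 7 without passing the test. Notch3 differed by -1.30 ± 0.49 (SE, adjusted p = 0.226), Tagln by -1.03 ± 0.51 (adjusted p = 0.329), Pdgfrb by -0.79 ± 0.47 (adjusted p = 0.41) and Myh11 by -0.61 ± 0.49 (adjusted p = 0.564), while Cspg4 differed by 0.35 ± 0.76. The median difference of the 8 members was -0.84, against -0.40 over all genes. At day 21 the differences were -2.89 ± 1.03 for Cnn1 (adjusted p = 0.117) and 0.99 ± 0.45 for Notch3 (adjusted p = 0.248). No member passed at days 1, 3 or 5, where 0% of all genes passed, at day 10 (0.263% of genes), day 14 (1.63%) or day 21 (2.4%). At an unadjusted p under 0.05 the members numbered 0, 1, 0, 0, 0 and 2 at these 6 days, against 2.64%, 3.04%, 2.97%, 8.79%, 12.3% and 15.8% of all genes. The other Myh11 probe was higher in 8 mm defects at day 21 by 1.90 ± 0.44 (adjusted p = 0.00945), whereas the tested probe differed by -0.77 ± 0.45 (adjusted p = 0.415), so the direction of Myh11 there depends on the probe.

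Other genes of the same cells give the setting, from lists that hold no member. Of 15 measured pericyte genes, 7, 8, 11, 11, 12 and 12 rose against day 1 at days 3 to 21 and none fell, with medians of 1.07, 1.90, 2.08, 2.16, 2.21 and 2.23. Among all genes 5.97%, 17.3%, 16.6%, 10.4%, 12.6% and 13.4% rose at these days. Ptn, which encodes the secreted growth factor pleiotrophin, rose by 5.59 ± 0.44 (SE) at day 7 and 4.44 ± 0.42 at day 21. Vtn, the adhesive protein vitronectin, rose by 3.70 ± 0.59 at day 7. Angpt1, the ligand with which mural cells steady the endothelium, differed by 0.41 ± 0.30 at day 5 (adjusted p = 0.4) and rose by 2.08 ± 0.35 at day 7 and 2.23 ± 0.34 at day 21. Cd248, endosialin, rose by 2.71 ± 0.36 at day 7 and 2.43 ± 0.35 at day 21. Between the sizes, 0 of the 15 passed at day 7, where 0.369% of all genes did. At day 14, 1 of them was higher in 8 mm defects, where 1.63% of all genes differed.

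The contraction genes went both ways. Of 20 measured, 6, 9, 5, 3, 5 and 4 rose at days 3 to 21, and 0, 0, 0, 1, 2 and 4 fell, with median changes of 0.93, 1.25, 0.46, 0.43, -0.07 and 0.14. Over all genes, 5.97%, 17.3%, 16.6%, 10.4%, 12.6% and 13.4% rose at these days. Falls were called for 0.469%, 1.69%, 4.84%, 6.15%, 8.41% and 12.8% of all genes. The counts of contraction genes that fell at days 3 to 14, and the count that rose at day 10, are near those shares. Tpm2, a tropomyosin, rose by 3.56 ± 0.42 (SE) at day 5 and 1.51 ± 0.47 at day 21, and Cald1, caldesmon, by 2.03 ± 0.36 and 2.12 ± 0.39. Csrp1 rose by 2.18 ± 0.27 at day 5 and differed by 0.48 ± 0.30 at day 21 (adjusted p = 0.248). Vcl, vinculin of the actin anchor, rose by 1.10 ± 0.31 at day 5 and fell by 1.92 ± 0.35 at day 21. Ldb3, which striated muscle also uses, fell by 5.51 ± 1.53 at day 21, with 24 arrays at the floor. Of the upstream regulators of the contractile genes, Myocd changed over the days in 8 mm defects (adjusted p = 0.0213), where all 6 arrays of day 14 were at the floor, but not in 4 mm defects (0.393). It differed from day 1 by 3.13 ± 1.28 at day 5 (adjusted p = 0.0767), with 28 arrays at the floor in all. Srf passed over the days in neither size (0.12 and 0.485) and differed from day 1 by 1.73 ± 0.98 at day 5 (adjusted p = 0.242). Of 15 measured genes of TGF-beta drive, 4, 6, 5, 5, 5 and 4 rose over days 3 to 21 and 1 fell at each of days 10 and 21, with medians of 1.07, 1.45, 1.63, 0.68, 1.01 and 0.43. Tgfb3, a TGF-beta ligand, rose by 3.52 ± 0.42 at day 7, and Itga11, a collagen receptor subunit, by 1.92 ± 0.27.

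**Figure D5:**
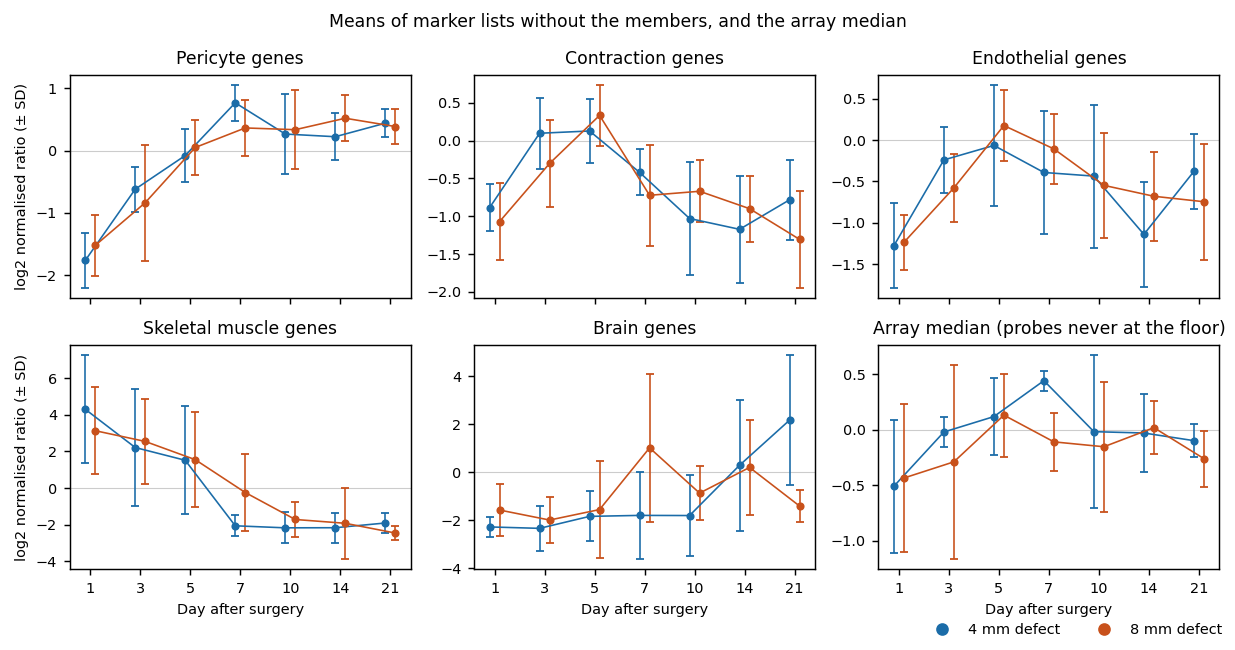
Mean log2 level (vertical axis, mean ± SD over the arrays of a group) by day after surgery for 5 marker lists that hold none of the members, and the array median of probes with no floor value; blue 4 mm, orange 8 mm. Pericyte genes go from -1.77 and -1.52 at day 1 to 0.44 and 0.39 at day 21, contraction genes stand at -0.78 and -1.31 at day 21, and skeletal muscle genes go from 4.30 and 3.13 to -1.90 and -2.45.

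Of the direct partners of members, Pdgfb, the ligand of Pdgfrb, changed over the days in both sizes (adjusted p = 0.0011 in 4 mm and 0.00817 in 8 mm defects). It was at the floor on 16 arrays, 4 of them among the 5 of 4 mm defects at day 14, where its mean was -5.5. From day 1 it differed by 1.78 ± 0.93 (SE, adjusted p = 0.191) at day 5 and by 0.11 ± 1.07 at day 7. Of 10 PDGF signalling genes, 1, 4, 3, 2, 2 and 1 rose at days 3 to 21, and 1 fell at each of days 14 and 21, with medians of 0.60, 0.69, 0.41, 0.06, 0.01 and -0.32. Among all genes 5.97%, 17.3%, 16.6%, 10.4%, 12.6% and 13.4% rose at these days, and 8.41% and 12.8% fell at days 14 and 21. The PDGF counts that rose at days 3, 10, 14 and 21, and those that fell, are near those shares. Plcg1, an enzyme that receptor tyrosine kinases activate, rose by 1.65 ± 0.25 at day 7, and Nrp1, a co-receptor, by 2.04 ± 0.51. Kcnj8, the pore of the channel that Abcc9 regulates, changed over the days in 8 mm defects (adjusted p = 0.00365) and not in 4 mm defects (0.333), with its lowest means, -1.78, at days 7 and 10 of 8 mm defects. From day 1 it differed by 0.22 ± 0.44 (adjusted p = 0.812) at day 5 and by -0.81 ± 0.49 (adjusted p = 0.226) at day 21.

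Around Notch3, the ligand Jag1 rose by 1.70 ± 0.33 (SE) at day 5, 2.21 ± 0.38 at day 7 and 1.72 ± 0.37 at day 21, and the target Heyl, a transcription factor of mural cells, by 3.04 ± 0.71 at day 7 and 4.38 ± 0.68 at day 21. The target Hey1 differed by 0.31 ± 0.76 (adjusted p = 0.824) at day 7. Rbpj, the DNA-binding partner of all Notch receptors, fell by 4.17 ± 0.44 at day 21. Of 18 measured Notch signalling genes, 1, 4, 6, 4, 3 and 3 rose and 0, 0, 1, 0, 2 and 5 fell at days 3 to 21. Their median change was 0.24, 0.38, 0.26, 0.09, -0.49 and 0.03, against 0.20, 0.34, 0.25, -0.06, -0.06 and -0.18 over all genes. Rises were called for 5.97%, 17.3%, 16.6%, 10.4%, 12.6% and 13.4% of all genes at these days, and falls for 0.469%, 1.69%, 4.84%, 6.15%, 8.41% and 12.8%. The counts of Notch signalling genes that rose at days 3, 5, 14 and 21 are near those shares, as are those that fell at days 3, 5, 7 and 14. The ligand Dll4 was not among the genes measured.

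Whether members went up and down together from defect to defect was asked within groups. After each array's median and each group's mean were taken off, the 28 pairs of members had Pearson correlations of -0.20 to 0.30 over the 93 arrays. In a permutation test 0 of the 28 passed after Benjamini-Hochberg adjustment, and 3 had an unadjusted p under 0.05. The highest pair was Rgs5 and Tagln, with r = 0.30 and Spearman's rho = 0.35 (permutation p = 0.015 and 0.00235, adjusted 0.407 and 0.0658), and r was 0.30 without the 2 farthest arrays. Rgs5 and Pdgfrb, whose means over the groups moved most alike, had r = 0.10 and rho = 0.18 within groups (permutation p = 0.431 and 0.118, adjusted 0.71 and 0.47). For this pair r was 0.27 without the 2 farthest arrays, and 0.38 (permutation p = 0.00181, adjusted 0.0253) with values under 0.25 raised to 0.25. When the array median was left in, 19 of the 28 pairs passed, with Rgs5 and Pdgfrb at 0.56, and that setting leaves in the level of the whole array.

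Over the 14 group means, which is a description with 14 points that share their arrays' levels, Rgs5 and Pdgfrb had r = 0.93, Myh11 and Pdgfrb 0.90, Rgs5 and Myh11 0.86, Rgs5 and Tagln 0.83, and Cnn1 and Pdgfrb -0.05. Abcc9 had -0.56 with Rgs5. Ranked by mean level, neighbouring days mostly lay within a standard deviation of each other. For Rgs5 in 4 mm defects the order from high was days 7, 5, 10, 21, 14, 3 and 1, with steps larger than the SD between days 7 and 5 and between days 3 and 1. For Tagln in 8 mm defects it was days 5, 7, 3, 10, 14, 21 and 1, with such steps between days 5 and 7 and between days 14 and 21. Of 5408 genes that were never at the floor and are no member, Fabp4 followed the mean of the contractile members most closely. Its r was 0.95 over the 14 group means, and Nsun6, Ap3s2, Pak1 and Anapc2 came next (0.92 to 0.94). The contractile members did not all move alike, and Cnn1 and Myh11 had r = -0.17 over the group means. The mean of the mural members was followed by Tm7sf3 (0.94), Dusp19, Trim41, Smim20 and Ppdpf (0.90 to 0.94); the scattered Abcc9 probe weighs on that mean.

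The stretch before the start of transcription is shown for 3 members with different courses, Rgs5, Cspg4 and Cnn1. Rgs5 was high at day 5, and in 4 mm defects also at day 7. Cspg4 was high at day 5, and Cnn1 was at the floor on some late arrays. The sequences are the 250 bases before the start in RefSeq on GRCr8, which held 6 of the 9 members. Capitals mark GGGCGG, the core of the GC box, or TGGGAA, the core that Rbpj reads, on either strand. They lie at chr13:84380827-84381076 on the plus strand, chr8:66160692-66160941 on the plus strand and chr8:28908187-28908436 on the plus strand.
Rgs5: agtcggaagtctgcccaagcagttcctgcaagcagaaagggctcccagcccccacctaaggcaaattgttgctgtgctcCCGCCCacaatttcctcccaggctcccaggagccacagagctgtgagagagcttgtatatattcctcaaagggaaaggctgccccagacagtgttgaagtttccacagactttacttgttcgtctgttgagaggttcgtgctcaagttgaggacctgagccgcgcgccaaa
Cspg4: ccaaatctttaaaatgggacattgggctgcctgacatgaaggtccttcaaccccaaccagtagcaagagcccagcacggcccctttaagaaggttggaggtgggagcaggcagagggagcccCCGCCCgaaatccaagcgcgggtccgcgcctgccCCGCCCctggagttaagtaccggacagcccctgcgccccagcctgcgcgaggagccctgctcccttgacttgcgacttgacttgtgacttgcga
Cnn1: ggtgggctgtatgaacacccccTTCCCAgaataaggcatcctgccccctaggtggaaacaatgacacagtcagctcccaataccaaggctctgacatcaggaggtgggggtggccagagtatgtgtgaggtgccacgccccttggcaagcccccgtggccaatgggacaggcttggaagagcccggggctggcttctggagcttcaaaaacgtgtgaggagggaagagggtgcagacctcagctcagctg

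GGGCGG, searched on both strands, was in the windows of Rgs5, Cspg4, Notch3 and Abcc9, and in 30.5% of 33469 rat promoter windows of the same length. TGGGAA was in those of Acta2 and Cnn1 and in 22.1% of all windows. CATTCC, which TEAD factors read, was in that of Acta2 and in 12.1% of all windows. The strict CArG box, the site of serum response factor (CC, then 6 letters A or T, then GG), was in none of the 6 member windows. It was in 1.5% of all. Near matches were not counted, and the Acta2 window holds ccctatatgg and ccttgtttgg, each off that pattern by a letter. No window was held for Tagln, Myh11 or Pdgfrb, so these members were not searched. GC content was 54.4% for Rgs5, 59.6% for Cnn1 and 62% for Cspg4, against a median of 51.2% over all windows. A match is a description of the letters, and no match says only that these letters are not in this window.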

How the data were processed

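RNA of each defect was labelled with Cy3 and hybridised to 1-colour Agilent rat whole genome arrays, per the labels' protocols. The authors deposited a linear ratio per probe and array. Of 41090 probes, 87.8% had a median of 1 (within 1e-06) across arrays, and 13.4% of values stood at the lowest value, 0.01. The sources used here do not give feature extraction, background correction or scaling, so signal over background is unknown.

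The design had assumed log values. As the table held ratios, log2 was taken with no pseudocount. Where a gene had several probes (3880 of 15975 genes), that of largest interquartile range stood for it; symbols came from the platform annotation, and 17424 of 20932 named probes were matched to GRCr8 gene names. The 14 groups of day and size entered 1 model in limma 3.58.1 (lmFit, eBayes; R 4.3.3), with Benjamini-Hochberg adjustment over all genes within a comparison and a threshold of 0.05; comparisons of days weight both sizes equally. The tests set each difference against the spread between defects within groups, pooled over the 14 groups for each gene. The number of arrays limits precision. The fit was tested on simulated normal values with no floor and no shared array level, so that test does not cover these features of the data. Pairs of members were tested with 100000 permutations within groups.

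Members and lists were chosen with earlier results of these data known. Members are all named; of each list of other genes, the 3 with the smallest adjusted p over days, the 3 with the largest change at day 7 and the direct partners of members qualified, and some are left out for space. The alternatives were other scalings, probe choice, array weights, the compared groups alone, a raised floor, arrays of low level (7, under -0.7) or high brain level (8, over 2) left out, replicates left out and a replicate block. Replicate numbers are the rat numbers of the titles. The labels do not say whether a number used in both sizes on a day is the same animal. Residuals of the 34 such pairs had a median correlation of 0.02 (-0.40 to 0.33), with 13 over 0.1. Arrays of unlike number were not compared in this way, so these values cannot show whether the animals are the same. The main fit did not treat them as pairs.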

Additional observations from a re-analysis of the deposited data

Results flagged for a closer look

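In 12 of 80 sets of 4 to 10 arrays (a member in a group), the highest or lowest array stood apart by Dixon's criterion, which chance meets in about 1 in 20 sets. At day 7 of 8 mm defects Rgs5 was low on replicate 13 (-2.76, the next at 0.32), and replicate 15 was high for Pdgfrb (1.45) and low for Cspg4 (-1.99). At day 7 of 4 mm defects Cspg4 was low on replicate 15 (-5.16). At day 10 of 4 mm defects replicate 10, an array of low level (-1.03), was low for Cspg4 (-6.64) and Notch3 (-2.62), and Abcc9 was high on replicate 12 (2.62) with the other 3 arrays at the floor. Cnn1 was low on replicate 12 of 8 mm defects at day 10 (-6.64) and on replicate 22 of 4 mm defects at day 3 (-2.11), and Tagln on replicate 17 of 4 mm defects at day 14 (-2.35). Abcc9 was at the floor, -6.64, on replicate 13 of 8 mm defects at day 1 and on replicate 19 of 4 mm defects at day 3.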

How the results depend on the processing

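Counts of members called, or of pairs correlated, moved by over 1.5 times in the following cases. For size at day 7 (1 member) the count was 2 with array weights and without the arrays of low level, 0 with the compared groups alone and with the raised floor, and 0 to 1 with a replicate left out. With the other probe of Myh11 and Abcc9, chosen after seeing the data, 1 member, Myh11, passed for the interaction and for size at day 21 (each 0 otherwise). The day 5 change of Myh11 reversed, to -0.011. At day 3 (5 members) the count was 3 with the compared groups alone and 2 to 5 with a replicate left out, 2 being without day 1, 4 mm replicate 13. From day 7 to day 21 (3 members) it was 1 without the arrays of high brain level and 2 to 4 with a replicate left out. For pairs of members (0 of 28) it was 19 with the array median left in, 6 under quantile normalisation and 4 with the raised floor. Of values of single members, 34 lost their call under an alternative, 13 of them with a replicate left out; among these Tagln at day 10 had an adjusted p of 0.0506 with the compared groups alone, Cnn1 over days in 4 mm defects had 0.0648 and 0.0638 without day 14 replicate 18 or 20, and Myh11 over days in 4 mm defects had 0.0596 as the mean of its probes. With the replicate block (correlation 0.03) each count of members called was the same as without it, with Rgs5 at day 7 at -1.97 (adjusted p = 0.0225).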
